A study of Rattus norvegicus with 24 samples.

Results

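The genes described here are 5 genes of hepatic fatty acid synthesis and desaturation: Acaca (ENSRNOG00000034013), Fasn (ENSRNOG00000045636), Scd (ENSRNOG00000013552), Fads1 (ENSRNOG00000020480) and Srebf1 (ENSRNOG00000003463). They were chosen by gene ID for the steps they carry out, with earlier results of these data known. They were 5 of the 26404 gene IDs counted in each library, and all 5 were among the 12496 genes with enough counts to be tested. In the liver, acetyl-CoA carboxylase, encoded by Acaca, makes malonyl-CoA, and fatty acid synthase, encoded by Fasn, builds palmitate from it. Stearoyl-CoA desaturase, encoded by Scd, then places a double bond in saturated fatty acids, whereas the desaturase encoded by Fads1 acts on polyunsaturated fatty acids on the way to arachidonic acid. Srebf1 encodes SREBP-1, a transcription factor that insulin activates and that drives transcription of lipogenic enzymes.

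The data were RNA-seq libraries of livers from female Sprague-Dawley rats. The rats were gavaged every 4 days with sesame oil vehicle or with TCDD (2,3,7,8-tetrachlorodibenzo-p-dioxin, a persistent ligand of the aryl hydrocarbon receptor) in it, and livers were taken on day 28, with an age of 57 days in the labels. The 8 groups were vehicle and TCDD at 0.01, 0.03, 0.1 and further at 0.3, 1, 3 and 10 µg/kg, with 3 libraries each, 24 in all, described as biological replicates. No genetic alteration is given for any group. Between 11816273 and 15804887 reads were assigned to genes in each library. Levels are given in CPM, the count of a gene relative to the library's total gene counts, with library sizes scaled by the trimmed mean of M values (TMM). A gene is said to have risen or fallen where edgeR's quasi-likelihood test gave a Benjamini-Hochberg adjusted p below 0.05 over all tested genes. In whole liver, fewer cells of a type and less RNA per cell cannot be told apart.

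Of the 5 genes, Fads1 fell at 10 µg/kg and Srebf1 rose along the order of doses; Scd, Fasn and Acaca passed no test against vehicle. Against vehicle, edgeR called 0 of the 5 genes at each dose from 0.01 to 3 µg/kg. Among all tested genes, 0.008% were called at 0.01, 0.016% at 0.03, 0.92% at 0.1, 2.06% at 0.3, 2.11% at 1 and 13.3% at 3 µg/kg. At an unadjusted edgeR p below 0.05, Scd alone passed at 0.01 and 0.1 µg/kg and Fads1 alone at 1 µg/kg. Fads1 and Acaca passed at 3 µg/kg, and 0 of 5 at 0.03 and 0.3 µg/kg. Of the 12496 tested genes, 1036 passed that threshold at 0.01, 932 at 0.03 and 1636 at 0.1 µg/kg. It was passed by 1874 at 0.3, 2138 at 1 and 3378 at 3 µg/kg. DESeq2 also called 0 of 5 at those 6 doses. The highest dose, 10 µg/kg, had 1 of 5 called, Fads1, against 28.2% of all tested genes. The median log2 fold change of the 5 genes at 10 µg/kg was -0.64, and that of all tested genes was -0.02; 1 of the 5, Srebf1, lay above 0.

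The stretch of the rat genome just upstream of Fads1, the gene whose TMM-scaled level separated the highest dose from the others, is shown first (RefSeq, GRCr8, chr1:216252442-216252604, plus strand). It holds 163 bases, ending at the outermost annotated start of the gene, with the letters CCAAT in capitals.
Fads1: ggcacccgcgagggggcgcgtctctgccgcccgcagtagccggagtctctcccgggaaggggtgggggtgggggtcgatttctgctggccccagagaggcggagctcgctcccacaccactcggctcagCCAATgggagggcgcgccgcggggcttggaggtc
Both stretches of 250 bases upstream of annotated Srebf1 transcript starts are given because its counts rose with dose and gene counts do not separate its starts (GRCr8, chr10:45529165-45529414 and chr10:45519011-45519260, minus strand, the second within the gene). Capitals mark ATTGG, which is CCAAT on the other strand.
Srebf1, start 1: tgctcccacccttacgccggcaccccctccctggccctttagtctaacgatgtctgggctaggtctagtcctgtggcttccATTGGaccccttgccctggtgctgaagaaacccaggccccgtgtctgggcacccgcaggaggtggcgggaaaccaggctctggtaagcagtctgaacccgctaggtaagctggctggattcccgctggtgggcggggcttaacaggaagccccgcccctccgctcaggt
Srebf1, start 2: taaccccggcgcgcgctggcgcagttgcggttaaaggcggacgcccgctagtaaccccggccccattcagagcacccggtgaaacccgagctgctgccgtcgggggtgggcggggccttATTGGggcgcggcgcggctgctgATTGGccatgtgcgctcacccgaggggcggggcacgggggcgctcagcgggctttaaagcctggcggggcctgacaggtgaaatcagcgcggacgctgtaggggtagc
Both strands of these stretches, and of 250 bases before an annotated Scd transcript start that lies within the gene, were searched for 4 motifs, none of which contains another: a sterol regulatory element (TCACNCCAC), a dioxin response element (TNGCGTG), an E-box (CACGTG) and the CCAAT box. The CCAAT box occurred once upstream of Fads1, once at the first Srebf1 start and in 2 places at the second, and the other 3 motifs occurred in none of the 4 stretches. Over 33469 rat promoter windows, CCAAT occurred in 34% within the 250 bases before the transcript start. It occurred in 23.5% within the first 163 of those bases, the part of its own window that the Fads1 stretch covers. In stretches of 250 bases, the sterol element occurred in 0.974%, the dioxin element in 4.09% and the E-box in 5.59%. Of the 5 genes, 3 had an entry in the promoter table (Scd, Fads1 and Srebf1). A match describes letters only.

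In TMM-scaled CPM, Fads1 was lower in every liver at 10 µg/kg than in every other liver of the series. The share of all tested genes with such a separation from the whole series was not counted. The closest pair was 585.5 CPM in replicate 2 at 10 µg/kg and 587.7 CPM in replicate 3 at 0.03 µg/kg. The 3 livers at 10 µg/kg had the highest TMM factors of the series, 1.08 to 1.11. Before that scaling, Fads1 in replicate 2 at 10 µg/kg was 0.0639% of gene counts. It was 0.0613% in replicate 3 at 0.03 µg/kg and 0.0583% in vehicle replicate 2. The level of Fads1 at 10 µg/kg was 430.1, 586 and 361 CPM, against 752, 632 and 834 CPM in vehicle livers. The groups did not overlap after scaling, which held in this direction for 21.3% of tested genes, but did overlap before it. The means were 459 ± 115 CPM at 10 µg/kg and 739 ± 101 CPM in vehicle livers (SD, n = 3 each), a log2 fold change of -0.69 with a standard error of 0.23 (95% confidence interval -1.17 to -0.20, edgeR adjusted p = 0.0322). Among all tested genes 13.5% fell at this dose. The call was lost in 4 of 6 fits that left out 1 library: the adjusted p came to 0.0709 when vehicle replicate 1 was omitted and 0.0987 for vehicle replicate 3. Among the livers at 10 µg/kg it came to 0.0903 when replicate 1 was omitted and 0.144 for replicate 3. Omitting either replicate 2 kept the call, at 0.0156 for the liver at 10 µg/kg and 0.0375 for the vehicle liver. In a fit of these 2 groups alone it was 0.051.

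At each of the 6 doses below 10 µg/kg, the mean level of Fads1 lay above that of the same 3 vehicle livers. It was 861, 809 and 1212 CPM at 0.01 µg/kg, 755, 994 and 588 CPM at 0.03 µg/kg, and 973, 1162 and 679 CPM at 0.1 µg/kg. At 0.3 µg/kg it was 984, 1192 and 850.2 CPM, at 1 µg/kg 1419, 1006 and 979.6 CPM, and at 3 µg/kg 1044, 1144 and 1044 CPM. The 9 livers at 0.3, 1 and 3 µg/kg all lay above the 3 vehicle livers. With each dose taken singly, such a separation was found in this direction for 10.7%, 10.7% and 14.9% of tested genes. The share with all 9 livers above vehicle was not counted. At 0.01, 0.03 and 0.1 µg/kg the libraries overlapped with vehicle. The group mean was highest at 1 µg/kg, 1135 ± 247 CPM (SD, n = 3). None of these 6 doses was called against vehicle: the log2 fold change was 0.62 at 1 µg/kg (standard error 0.23, edgeR adjusted p = 0.166) and 0.54 at 3 µg/kg (standard error 0.23, adjusted p = 0.134), the largest and second largest of them.

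Set against 3 µg/kg, the next lower dose, Fads1 fell by 1.23 on the log2 scale at 10 µg/kg (standard error 0.24, edgeR adjusted p = 0.00427), to 459 ± 115 CPM at 10 µg/kg against 1077 ± 57.8 CPM at 3 µg/kg (SD, n = 3 each). This comparison called 1 of the 5 genes, against 5.29% of all tested genes, 2.83% of them lower. The call was kept in all 6 fits that left out 1 library of either group, with adjusted p between 0.00503 and 0.0388. Comparisons of 10 µg/kg with the other doses were added with the data in view and share the same 3 livers at 10 µg/kg. Fads1 was lower at 10 µg/kg by a log2 fold change of -1.31 against 1 µg/kg (edgeR adjusted p = 0.00108, 9.43% of tested genes called), -1.14 against 0.3 µg/kg (adjusted p = 0.0023, 15.3% called) and -1.03 against 0.1 µg/kg (adjusted p = 0.0038, 20.7% called). It was also lower by -0.76 against 0.03 µg/kg (edgeR adjusted p = 0.0219, 23.3% called) and by -1.07 against 0.01 µg/kg (adjusted p = 0.00225, 24.3% called). The comparison with 0.03 µg/kg lost its call in 3 of 6 fits that left out 1 library, and in a fit of those 2 groups alone (edgeR adjusted p = 0.0617).

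Across all 8 groups, Fads1 differed by dose (edgeR F test for any dose, adjusted p = 0.00763). By edgeR it was the only one of the 5 genes called in that test, against 21% of tested genes. A straight line over the dose order, with vehicle as the first of 8 equally spaced levels, did not describe it: the slope was -0.01 log2 units per step (adjusted p = 0.937). Over vehicle to 3 µg/kg alone the slope was 0.09 log2 units per step (standard error 0.0296, edgeR adjusted p = 0.0453), where 16.2% of 12293 tested genes were called and 9.72% rose. That call was lost in 15 of 21 fits that left out 1 library, with adjusted p of 0.0131 to 0.108, and without the filter on low counts (adjusted p = 0.0569). This range of doses was chosen after the values were seen.

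**Figure D1:**
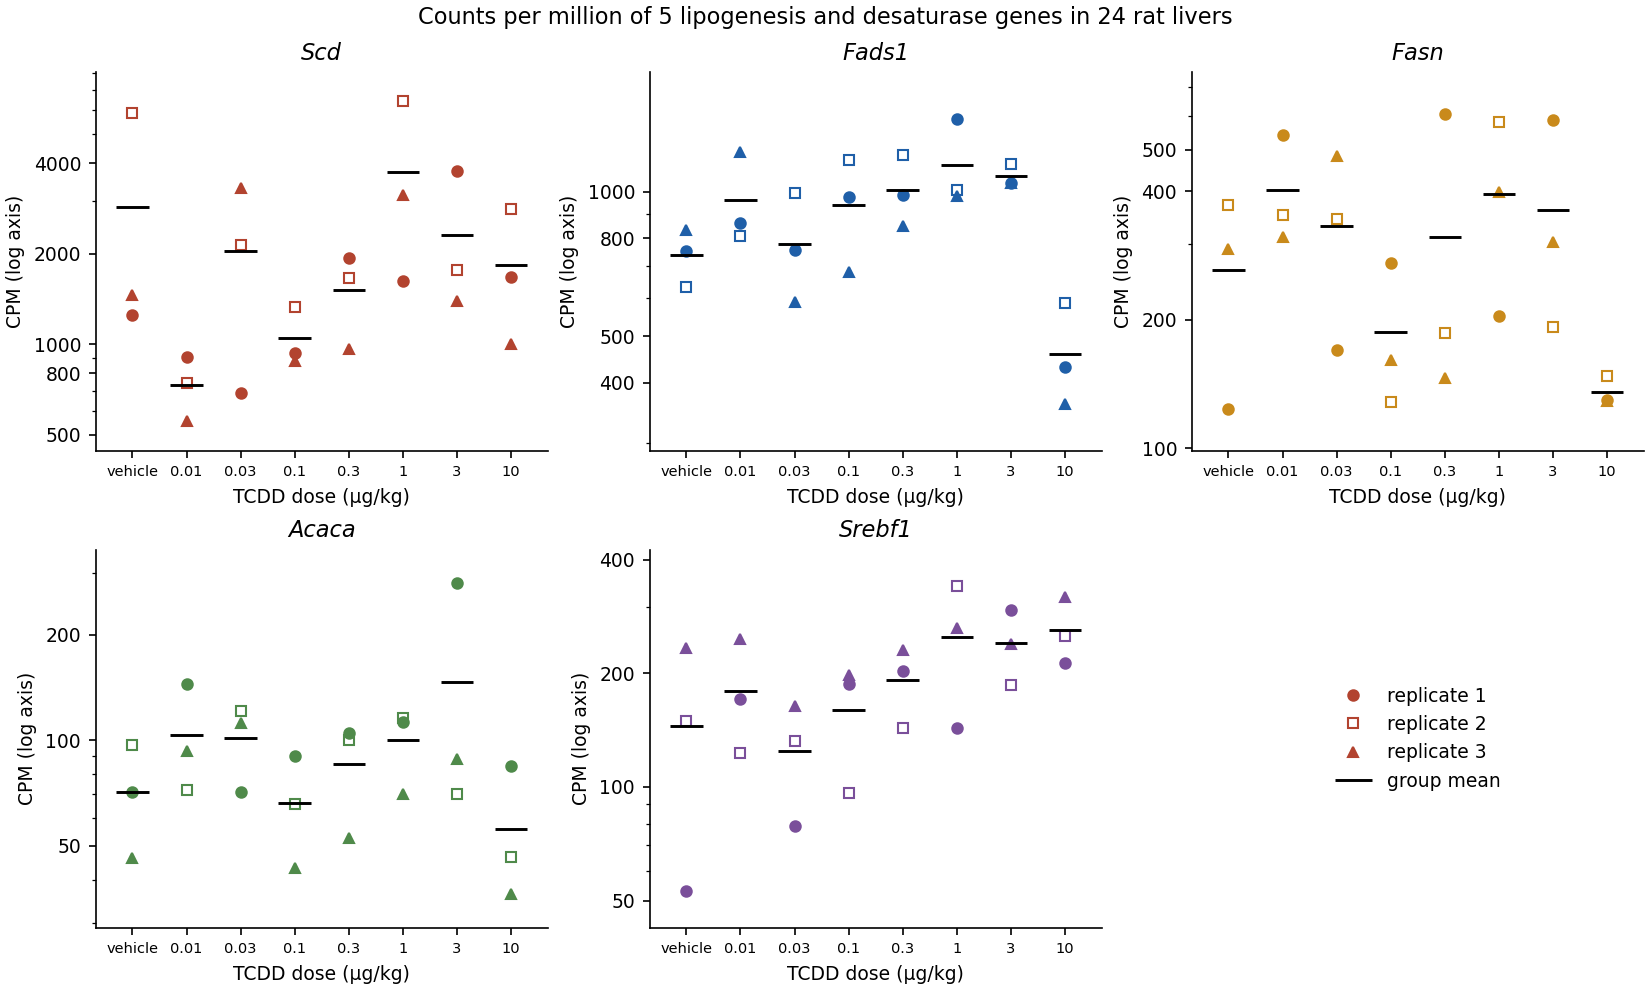
Level of each of the 5 genes in every liver, in TMM-scaled CPM on a log axis, by group in order of dose; points are single livers and bars are group means, with a marker shape for each replicate number. Fads1 at 10 µg/kg lies below all other livers, and the livers of a group lie far apart for Scd, Fasn and Acaca.

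Srebf1, the transcription factor of the group, rose along the dose order. Its level was 52.9, 149 and 233 CPM in vehicle livers, 171, 123 and 246 CPM at 0.01 µg/kg, 78.6, 132 and 164 CPM at 0.03 µg/kg, and 187, 96.1 and 197 CPM at 0.1 µg/kg. It was 203, 143 and 231 CPM at 0.3 µg/kg, 143, 340.2 and 264 CPM at 1 µg/kg, 294, 187 and 239 CPM at 3 µg/kg, and 212, 252 and 317 CPM at 10 µg/kg. Vehicle livers spanned a more than 4-fold range and overlapped with every dose, and the 2 lowest of the 24 values were in a vehicle liver and a liver at 0.03 µg/kg. The slope was 0.13 log2 units per dose step (standard error 0.0429, edgeR adjusted p = 0.0201). Of the 5 genes, 1 was called along the dose order, against 33.6% of tested genes, 17.8% of them rising. The call was kept in all 24 fits that left out 1 library, with adjusted p between 0.00562 and 0.0496.

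Without the 10 µg/kg group the slope of Srebf1 was again 0.13 but was not called (adjusted p = 0.101), and without the vehicle group it was 0.14 (adjusted p = 0.0199, where 29% of tested genes were called). No single dose was called against vehicle. Srebf1 at 10 µg/kg averaged 260 ± 53.0 CPM, against 145 ± 89.9 CPM in vehicle livers (SD, n = 3 each), with a log2 fold change of 0.85 (standard error 0.42, edgeR adjusted p = 0.14). Without vehicle replicate 3 it was 1.36 (adjusted p = 0.0304), and without vehicle replicate 1 it was 0.45. Replicate 3 had the highest Srebf1 value of its group in 6 of 8 groups and the lowest in 0. This was not particular to Srebf1. Replicate 3 had the lowest value in 6 of 8 groups for Fads1, in 5 each for Scd and Acaca, and in 3 for Fasn. Replicate 1 had the highest Acaca value in 5 of 8 groups.

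The fitted change of Srebf1 at the highest dose had the opposite sign to those of the other 4 genes. At 10 µg/kg against vehicle the log2 fold changes of Fasn, Acaca, Scd and Fads1 were all negative, though only that of Fads1 was called. Without vehicle replicate 2, that of Scd was 0.45 and that of Acaca was -0.06. Against 3 µg/kg, Srebf1 differed by 0.12 (edgeR adjusted p = 0.905) and Scd by -0.33 (adjusted p = 0.804). Fasn, Acaca and Fads1 lay at -1.41, -1.40 and -1.23. Whether these differences between genes exceed their errors was not tested.

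**Figure D2:**
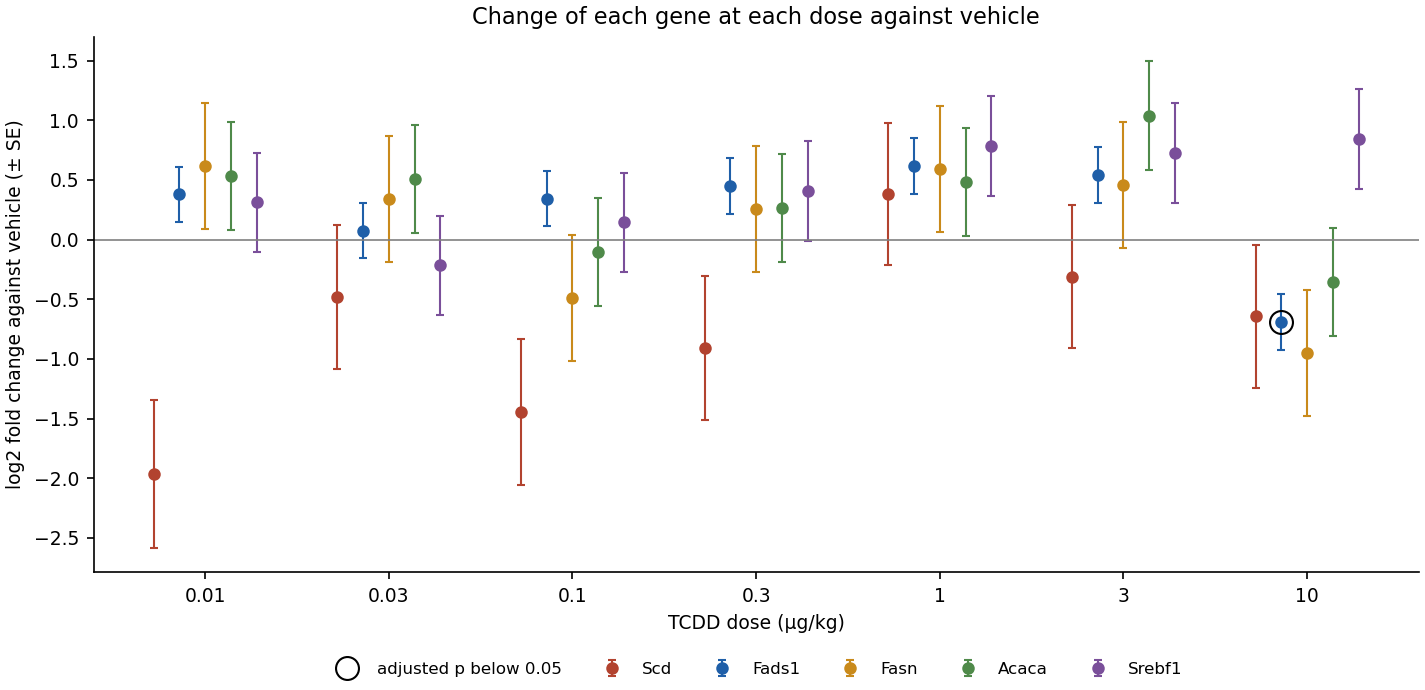
Log2 fold change against vehicle of each gene at each dose, with its standard error derived from edgeR's quasi-likelihood F (bars). A ring marks an adjusted p below 0.05. The single ring is on Fads1 at 10 µg/kg, at -0.69.

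Acaca, which makes malonyl-CoA in the committed step of fatty acid synthesis, was not called at any dose. Its level was 71.2, 96.8 and 46.0 CPM in vehicle livers, 145, 72.3 and 92.9 CPM at 0.01 µg/kg, 71.3, 122 and 112 CPM at 0.03 µg/kg, and 90.0, 65.9 and 43.2 CPM at 0.1 µg/kg. It was 105, 99.9 and 52.5 CPM at 0.3 µg/kg, 113, 116 and 70.4 CPM at 1 µg/kg, 281, 70.4 and 88.6 CPM at 3 µg/kg, and 84.5, 46.3 and 36.4 CPM at 10 µg/kg. The groups overlapped in all 28 pairs, and 1 liver at 3 µg/kg stood above all others. At 3 µg/kg against vehicle the log2 fold change was 1.04 (standard error 0.46, edgeR adjusted p = 0.142), and without that liver it was 0.17. At 10 against 3 µg/kg it was -1.40 (standard error 0.46, adjusted p = 0.0819). That difference was -0.51 without the same liver, and DESeq2 called it (adjusted p = 0.0313).

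Fasn, the enzyme that builds palmitate, varied little at 10 µg/kg and widely elsewhere. Its level at 10 µg/kg was 130.1, 148 and 129 CPM, against 124, 370.3 and 292 CPM in vehicle livers. Its mean at 10 µg/kg was 136 ± 10.4 CPM, against 262 ± 126 CPM in vehicle livers (SD, n = 3 each). The lowest vehicle liver lay below all livers at 10 µg/kg, so the groups overlapped, and the log2 fold change of -0.95 was not called (standard error 0.53, edgeR adjusted p = 0.194).

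At the lower doses, Fasn was at 539.7, 352 and 312 CPM at 0.01 µg/kg, 169.9, 344 and 483 CPM at 0.03 µg/kg, and 272, 128 and 161 CPM at 0.1 µg/kg. It was at 607, 186 and 146 CPM at 0.3 µg/kg, 204, 580.3 and 398 CPM at 1 µg/kg, and 585, 192 and 304 CPM at 3 µg/kg. In the groups at 0.3 and 3 µg/kg, 1 liver lay far above the other 2, and all 6 of these groups overlapped with vehicle. At 10 against 3 µg/kg the log2 fold change was -1.41 (standard error 0.54, edgeR adjusted p = 0.133), with no overlap, as in this direction for 13.3% of tested genes. At 10 against 0.01 µg/kg it was -1.57 (edgeR adjusted p = 0.0391), so that 2 of the 5 genes were called there, and that call was lost in 5 of 6 fits that left out 1 library.

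Scd, which places the double bond of oleate, had the widest spread of the 5 genes. Its level was 1251, 5860 and 1456 CPM in vehicle livers, 903, 742 and 553 CPM at 0.01 µg/kg, 689, 2135 and 3316 CPM at 0.03 µg/kg, and 937, 1328 and 879 CPM at 0.1 µg/kg. It was 1933, 1656 and 966 CPM at 0.3 µg/kg, 1621, 6413 and 3133 CPM at 1 µg/kg, 3761, 1766 and 1388 CPM at 3 µg/kg, and 1674, 2817 and 999.8 CPM at 10 µg/kg. One vehicle liver and 1 liver at 1 µg/kg were far above the rest. RefSeq lists Scd also as a synonym of Scd2, a related desaturase gene. Reads that aligned to more than one place were counted to no gene. Any that aligned to both genes are thus missing from the Scd counts, and their number is not given.

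The 3 livers at 0.01 µg/kg had less Scd RNA than every vehicle liver, a separation found in this direction for 5.03% of tested genes. At 0.01 µg/kg it averaged 733 ± 175 CPM, against 2856 ± 2604 CPM in vehicle livers (SD, n = 3 each), with a log2 fold change of -1.96 (standard error 0.62, edgeR adjusted p = 0.421). Without vehicle replicate 2 that value was -0.89. At 10 µg/kg against vehicle the log2 fold change was -0.64 (standard error 0.60, edgeR adjusted p = 0.46), and it was 0.45 without the same vehicle liver. The F test for any dose gave an adjusted p of 0.0908 with edgeR and 0.0473 with DESeq2.

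The spread between livers of a group was large for 4 of the 5 genes. The biological coefficient of variation, the relative spread between replicates beyond counting error, was 49.97% for Scd, 44.3% for Fasn, 38.3% for Acaca, 35.7% for Srebf1 and 21.2% for Fads1, against a median of 18.5% over all tested genes. It exceeded that of 96.6% of tested genes for Scd, 94.9% for Fasn, 91.7% for Acaca, 89.7% for Srebf1 and 61.4% for Fads1. Among the 1000 genes nearest in mean level it exceeded that of 97.5%, 96.2%, 95%, 91.7% and 73.1%. The 95% confidence interval at 10 µg/kg against vehicle was -1.89 to 0.61 for Scd and -2.06 to 0.16 for Fasn on the log2 scale.

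**Figure D3:**
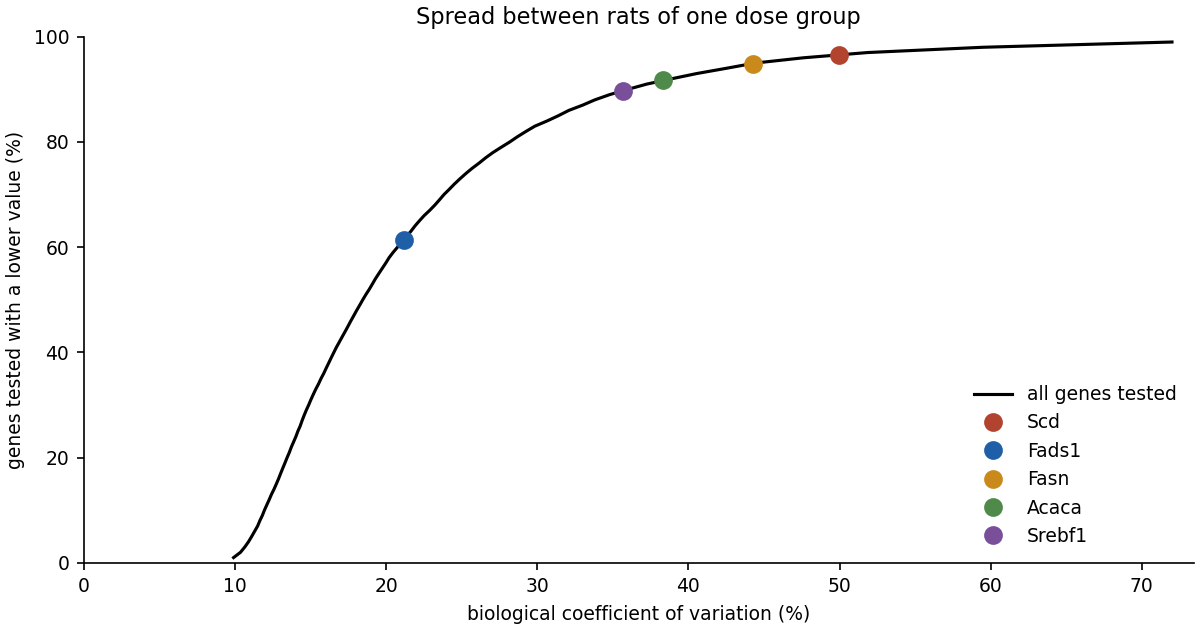
Share of tested genes with a lower biological coefficient of variation (vertical axis, %) against that coefficient (horizontal axis, %), as a line for all tested genes and a point for each of the 5. Scd, Fasn, Acaca and Srebf1 lie at 49.97, 44.3, 38.3 and 35.7%, above the median of 18.5%, and Fads1 lies at 21.2%.

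Within dose groups, Scd, Fasn and Acaca tended to be high in the same livers, and Fads1 did not share this pattern. Each liver's log2 level was taken as its deviation from its own group's mean, so that differences between group means did not enter, over 24 livers that share library scaling. Replicate number was not adjusted for. For Scd and Fasn, Pearson's r was 0.71 and Spearman's rho was 0.71. The liver highest in one was highest in the other in 7 of 8 groups, and the lowest was the same in 6 of 8. Without the 2 livers farthest from the median r was 0.66, and without the 10 µg/kg group it was 0.73. The value of r was 0.63 for Fasn and Srebf1, 0.56 for Scd and Acaca, 0.53 for Fasn and Acaca, and 0.34 for Scd and Srebf1. For Fads1, r was -0.11 with Scd, -0.25 with Fasn, 0.15 with Acaca and -0.27 with Srebf1, and for Acaca and Srebf1 it was -0.01.

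**Figure D4:**
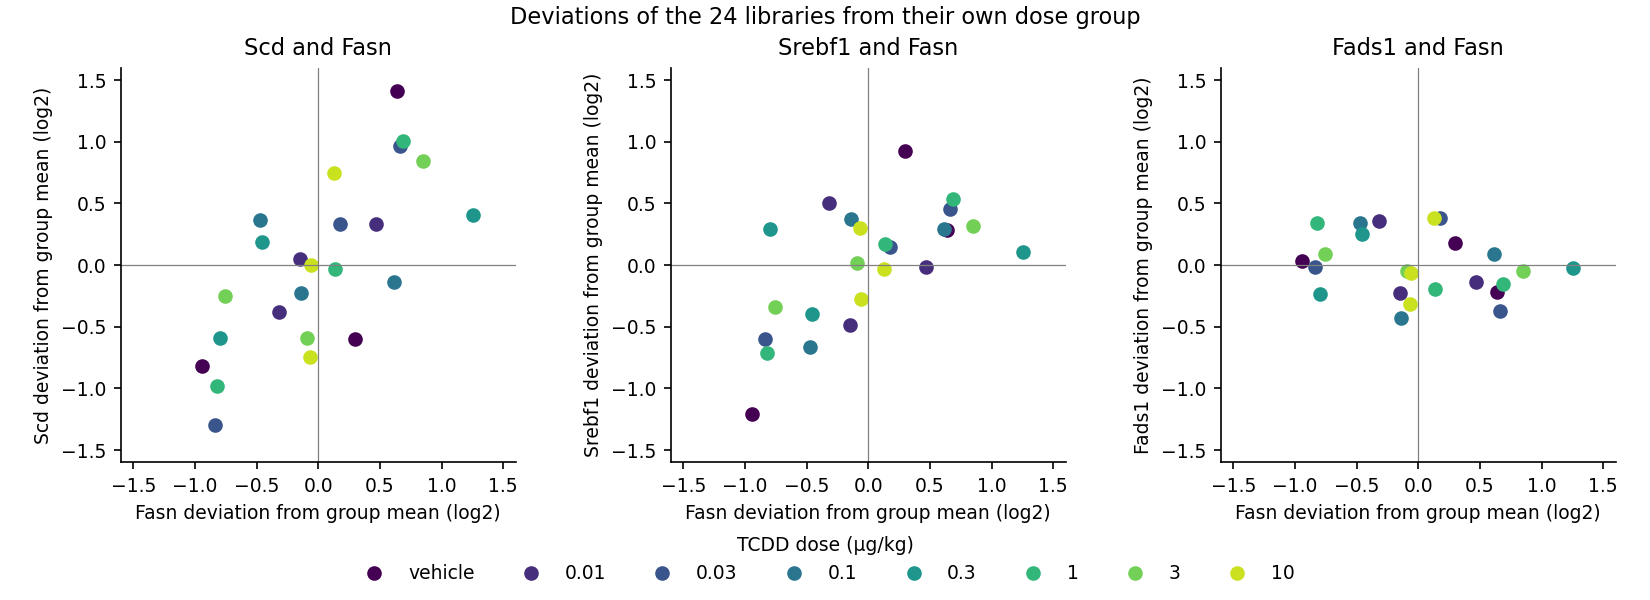
Deviation of each liver from its group mean, in log2 CPM, for Scd, Srebf1 and Fads1 (vertical axes) against Fasn (horizontal axes); each point is 1 of 24 livers and colours mark dose groups. Scd and Fasn are high in the same livers (r = 0.71), as are Srebf1 and Fasn (r = 0.63), whereas Fads1 and Fasn do not (r = -0.25).

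Likeness was ranked among the 8346 other genes with a mean level of at least 5 CPM, within groups and over the 24 livers with dose left in. Within groups, Fasn ranked 8 for Scd and Scd ranked 12 for Fasn; with dose left in, these ranks were 244 and 279. Acaca and Fasn ranked the other way: Acaca was 147 for Fasn and Fasn 181 for Acaca within groups, and 7 and 19 with dose left in (r = 0.68). For Fasn, Srebf1 ranked 42 within groups and 748 with dose left in, and Fads1 ranked 6841 and 968. The 3 genes most like Fads1 over the 24 livers had r of 0.91, 0.87 and 0.84; they are not named because no table used here pairs their IDs with symbols. These correlations are across livers that share dose, depth and scaling, and they are given as descriptions.

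Reads that aligned to more than one place, none of them counted to a gene, made up 32.0% ± 2.85 of alignments at 10 µg/kg, against 24.1% ± 0.797 in vehicle livers (SD, n = 3 each), and from 21.04 to 25.8% in the livers at the other doses. The share was thus high in the group where Fads1 fell, and its part in that result was not tested.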

How the data were processed

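Liver RNA-seq libraries were made with TRIzol extraction and an Illumina TruSeq kit, per the labels' protocols. Per the submitters' processing notes, alignment used TopHat 1.4.1 and counting HTSeq 0.6.1, alongside DESeq, SAMtools 0.1.2, FastQC 0.11.2 and cutadapt 1.4.1; the build, annotation and strand setting are not given in the sources used here. The deposited values are raw read counts per Ensembl gene ID, with 5 summary rows (unassigned reads) that held 35.8 to 47.5% of each table and were left out of library sizes and tests.

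From these counts, edgeR 4.0.16 in R 4.3.3 was run with TMM scaling and its default filter on low counts, which left 12496 of 26404 IDs. A quasi-likelihood model with 1 mean per group was fitted to all 24 libraries (16 residual degrees of freedom), and p-values were adjusted by Benjamini-Hochberg over all tested genes. Slopes came from a separate quasi-likelihood fit with dose order, coded as equal steps, as the only term. In that fit, differences of group means from the line count as spread between libraries. P-values of the comparisons rest on the spread between libraries within groups, estimated jointly over all 8 groups and not from the compared groups alone. Each library held at least 11816273 gene counts. Gene counts of replicates differed by more than sampling noise (chi-square per degree of freedom 13.0 to 54.3), so no library was counted as a repeat. The named genes are the 5 members. DESeq2 1.42.0 and other settings were alternatives.

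The members and lists were chosen with earlier results of these data known. Lists of other pathway genes, liver cell markers and TCDD target genes were drawn up by symbol but were not used here, since 0 of 47357 RefSeq rows hold an Ensembl ID; the liver label was therefore not checked against markers.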

Additional observations from a re-analysis of the deposited data

Results flagged for a closer look

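Alignments to more than one place made up 32.0% of the total at 10 µg/kg (29.3 to 35.0% over 3 livers), against 24.1% in vehicle livers (23.4 to 24.9%). It was noted because it is a signal outside the gene counts that stood above the level in vehicle livers, and its part in the gene results was not tested. The log2 fold change of Fads1 at 10 against 3 µg/kg was -1.23. It was noted because the change of Fads1 against vehicle differed between these doses, at -0.69 for 10 µg/kg and 0.54 for 3 µg/kg, by edgeR's test of the difference (adjusted p = 0.00427).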

How the results depend on the processing

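RLE scaling in place of TMM, no filter, or a filter of 1 CPM in 3 libraries changed no call of the 5 genes in the comparisons with vehicle, 10 against 3 µg/kg, any dose or dose order. DESeq2 called Acaca at 10 against 3 µg/kg (-1.39) and Scd for any dose (adjusted p = 0.0473). A fit of the 2 groups alone lost Fads1 at 10 µg/kg against vehicle (-0.67). In the added comparisons of 10 µg/kg with other doses, such fits lost Fads1 against 0.03 µg/kg (-0.76). They called Fasn against 1 and 0.03 µg/kg (-1.53 and -1.28), Srebf1 against 0.03 µg/kg (1.07) and Scd against 0.01 µg/kg (1.35). DESeq2 also called Srebf1 at 10 against 0.03 µg/kg (adjusted p = 0.0413). Settings added after seeing the data moved slopes: from vehicle to 3 µg/kg they were 0.0879 for Fads1, 0.0408 for Fasn (both of opposite sign to the full order) and 0.13 for Srebf1 (no longer called), and from 0.01 to 10 µg/kg -0.00775 for Acaca. Without the 10 µg/kg livers, r of Acaca and Srebf1 was 0.0572. The cause of these changes was not tested.

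The labels do not say that replicate numbers pair the livers. Same-numbered deviations correlated at -0.245 to 0.397 (median 0.0985) over the 28 pairs of groups, with 3 correlations to a pair. Of these 84 correlations, 42 exceeded 0.1. All 3 exceeded 0.1 in 0 of the 8 comparisons with vehicle or of 10 with 3 µg/kg, and in 1 of the 28 pairs, 10 and 1 µg/kg (0.104 to 0.359), where the block changed no call of the 5 genes. Of 24 libraries, 15 lay closest to their own number, a hint from the data only. With a replicate block Acaca at 10 against 3 µg/kg was called (-1.34), the slope of Srebf1 was 0.142 (adjusted p = 0.00686), and from vehicle to 3 µg/kg the slope of Srebf1 was called (0.148, adjusted p = 0.0467) and that of Fads1 was not (0.0859, adjusted p = 0.0526). Acaca (-1.03) and Srebf1 (1.08) at 10 against 0.03 µg/kg were also called with the block, and 183 genes were called at 0.1 µg/kg, against 115 without it.

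Leaving out 1 library at a time turned the sign of changes that were not called or moved a call, with these log2 ranges. Against vehicle, Scd ranged over -1.02 to 0.60 at 0.03, -1.27 to 0.18 at 0.3, -0.26 to 1.46 at 1, -0.85 to 0.78 at 3 and -1.10 to 0.45 at 10 µg/kg. Srebf1 ranged over -0.0851 to 0.83 at 0.01, -0.61 to 0.30 at 0.03, -0.25 to 0.66 at 0.1 and 0.45 to 1.36 at 10 µg/kg. Fasn ranged over -0.0285 to 0.68 at 0.03, -0.66 to 0.61 at 0.3 and -0.0628 to 0.81 at 3 µg/kg. Fads1 ranged over -0.13 to 0.24 at 0.03 and -0.90 to -0.54 at 10 µg/kg, and Acaca over -0.39 to 0.20 at 0.1 µg/kg. At 10 against 3 µg/kg, Scd ranged over -0.79 to 0.22, Acaca over -1.83 to -0.51 and Srebf1 over -0.0494 to 0.29. At 10 µg/kg, Scd ranged over -0.61 to 0.37 against 0.03 and -0.18 to 0.56 against 0.3 µg/kg, Acaca over -0.68 to 0.0285 against 0.1 µg/kg, and Srebf1 over -0.22 to 0.35 against 1 µg/kg. The slope along the dose order was -0.0196 to 0.0244 for Fads1 and -0.0484 to 0.053 for Acaca, and the adjusted p of Scd for any dose was 0.0475 to 0.19. From vehicle to 3 µg/kg the slope of Fasn was -0.00241 to 0.0699.

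Against vehicle, DESeq2 called 15 genes at 0.01 µg/kg (edgeR 1), 32 at 0.03 (edgeR 2), 313 at 0.1 (edgeR 115), 524 at 0.3 (edgeR 258) and 625 at 1 µg/kg (edgeR 264). In fits of the 2 groups alone the counts were 0, 42, 7 and 54 at 0.01, 0.1, 0.3 and 1 µg/kg, 757 at 3 µg/kg (1657 in the full fit) and 279 at 10 against 3 µg/kg (661 in the full fit). From vehicle to 3 µg/kg 1986 genes were called for a slope, against 4196 over all groups.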
